A study of Bos taurus with 3 samples.

Results

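Milk fat leaves the mammary epithelial cell as a droplet wrapped in a layer of apical plasma membrane, and 4 genes of this step were followed from the dry period into lactation: BTN1A1 (butyrophilin, NM_174508.2), XDH (xanthine dehydrogenase, NM_173972.2), CIDEA (cell death-inducing DFFA-like effector a, NM_001083449.1) and GP2 (glycoprotein 2 of the zymogen granule membrane, NM_001075950.1). They were picked by symbol, taken as the last name in brackets of each gene's description, and are 4 of the 9154 genes with tags in at least 1 library. Each symbol matched 1 accession. The rule itself reads no measured value, but the 4 genes were proposed with earlier results of these data known, so the counts of calls among them are not those of an unselected set.

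Mammary tissue came from 18 Holstein cows in the second parity, 6 cows at each of 3 time points: day −35 relative to parturition, in the dry period when the gland is relatively static, day −7, which stands for stage I of lactogenesis, and day 3 after parturition, which stands for stage II. Different cows were sampled at each time point, no treatment is named, and the tissue of the 6 cows was pooled into 1 digital gene expression (DGE) library per time point. Clean tags numbered 5914422 in the dry period, 5593237 in stage I and 5845821 in stage II, and 40.5%, 41.4% and 53.0% of them lay on listed genes. A level is given in TPM, tags per 1000000 clean tags. With 1 library per time point the DGE values have no replicate library to be set against, and the study's qRT-PCR was not analysed here. The tests compare libraries, not conditions, and the spread among cows does not enter them. All intervals are 95% intervals of counting error only. They treat every tag as a separate count, although PCR copies of a tag do not count separate molecules, so they can be too narrow.

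Butyrophilin is a membrane protein of the immunoglobulin superfamily and a major protein of the bovine milk fat globule membrane. Its cytoplasmic tail binds xanthine dehydrogenase, an enzyme otherwise known for the breakdown of purines, and in the usual model the pair docks onto perilipin 2 (PLIN2) on the droplet surface so that the membrane closes around the fat. CIDEA sits on lipid droplets and promotes their fusion, and is best known from brown fat, while GP2 is a membrane glycoprotein of pancreatic secretory granules that has also been found on milk fat globules.

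The library labels were checked against the milk proteins, which define the secretory epithelium. All 6 milk protein genes (CSN1S1, CSN1S2, CSN2, CSN3, LALBA and PAEP) had tags in every library, and their summed level climbed from 3488 TPM in the dry period through 41525 TPM to 231338 TPM after parturition. Of 12 luminal epithelial markers, 8 were listed, and none of the listed ones was at 0 tags in any library. KRT18, KRT19, FOXA1 and PRLR were not listed.

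All 4 genes were lowest at −35 d, intermediate at −7 d and highest at +3 d. BTN1A1 had 26 tags in the −35 d library, 238 in the −7 d library and 502 in the +3 d library, or 4.396 TPM (2.87 to 6.44), 42.6 TPM (37.3 to 48.3) and 85.9 TPM (78.5 to 93.7). Its intervals did not overlap between any 2 libraries. In the dry period 27.6% of the listed genes had fewer tags than BTN1A1, and after parturition 92.8% had fewer.

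XDH had many tags throughout. It had 1771, 4626 and 8129 tags, in the same order of libraries, or 299 TPM (286 to 314), 827 TPM (803 to 851) and 1391 TPM (1360 to 1421). It already ranked 187 of 8662 listed genes by tags in the dry period, and rose to rank 55 of 8363 and then 26 of 8359.

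CIDEA had the fewest tags of the 4 in each library. Only 5, then 24 and then 186 tags were counted, or 0.845 TPM (0.274 to 1.97), 4.29 TPM (2.75 to 6.38) and 31.8 TPM (27.4 to 36.7). Its dry-period count lay just above the 3 tags (0.507 TPM) that a count of 0 would still allow in that library, so its ratios against −35 d are wide.

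GP2 started nearly as low. It had 9, 38 and 501 tags, or 1.52 TPM (0.696 to 2.89), 6.79 TPM (4.81 to 9.33) and 85.7 TPM (78.4 to 93.5). GP2 moved from rank 7313 in the dry period to rank 5334 before parturition and rank 604 after it, close to BTN1A1 at rank 601.

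**Figure D1:**
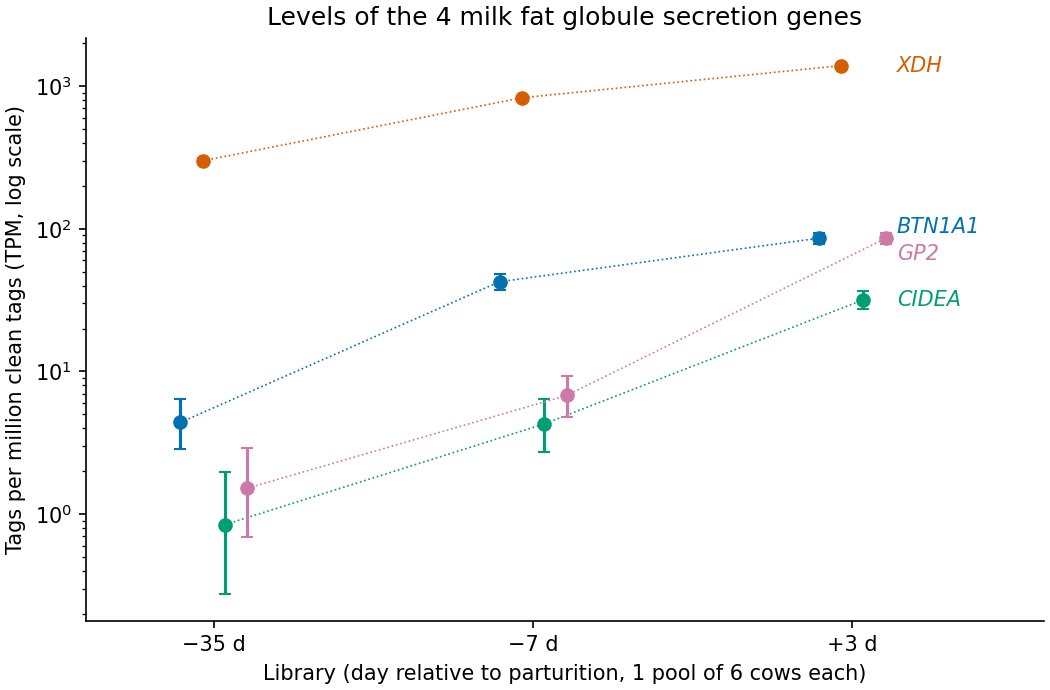
Levels of the 4 genes in each library, in TPM (log axis), with 1 library per time point and vertical bars for 95% Poisson intervals of the tag counts. Every gene is lowest at −35 d and highest at +3 d, and BTN1A1 and GP2 meet at 85.9 and 85.7 TPM at +3 d.

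By tags, the order within each library was XDH, BTN1A1, GP2, CIDEA. DGE in principle gives 1 tag per transcript whatever its length, so levels of different genes are set side by side as tags, although these libraries also hold tags from further CATG sites of a transcript, so a gene can be counted at more than 1 site, tags that could belong to several genes were left out and the yield of each site is unknown. Ratios of tags between genes are therefore not ratios of transcripts. XDH had 68.1 tags for each BTN1A1 tag at −35 d (46.3 to 105), 19.4 at −7 d (17.1 to 22.2) and 16.2 at +3 d (14.8 to 17.8). Neighbours that could not be separated by their tag counts were GP2 and CIDEA at −35 d (ratio 1.80, 0.542 to 6.84) and at −7 d (1.58, 0.925 to 2.76), and BTN1A1 and GP2 at +3 d (1.002, 0.884 to 1.14). At +3 d GP2 had 2.69 tags for each CIDEA tag (2.27 to 3.20).

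Stage I asks what changes in the gland from the dry period to the week before parturition. A gene was called higher or lower where the Audic-Claverie test, which compares 2 tag counts with the spread expected from counting, gave an FDR of at most 0.001 over all genes tested and the level differed at least 2-fold. All 4 genes were called higher at −7 d than at −35 d, beside 9.07% of the 8967 genes tested that were called at all, 2.62% higher and 6.45% lower. BTN1A1 rose 9.68-fold (6.44 to 15.1; adjusted p = 3.97e-45, Audic-Claverie test) and was at place 99 of 8967 ratios. CIDEA rose 5.08-fold (1.90 to 17.03; adjusted p = 0.000828), GP2 4.46-fold (2.12 to 10.5; adjusted p = 3.93e-05) and XDH 2.76-fold (2.61 to 2.92; its p was too small to be held as a number). In whole tissue, a change in the number of secretory cells and a change in RNA per cell cannot be told apart for any of these values.

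These calls take account of counting error alone. Where edgeR was given a biological coefficient of variation of 0.2, an assumed value, only BTN1A1 kept its stage I call, and with 0.4 none of the 4 did. Over all genes 0.301% were called higher with 0.2 and 0.0223% with 0.4. The CIDEA call rests on 5 against 24 tags, and with Fisher's exact test in place of the Audic-Claverie test its adjusted p was 0.00111, just over the threshold.

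Stage II compares +3 d with −7 d and shares the −7 d library with stage I, so the results of the 2 stages are not independent. Here GP2 and CIDEA led. GP2 rose 12.6-fold (9.06 to 18.0; adjusted p = 4.22e-98, Audic-Claverie test) and was at place 51 of 8784 ratios, and CIDEA rose 7.42-fold (4.83 to 11.9; adjusted p = 1.47e-29). BTN1A1 rose 2.02-fold (1.73 to 2.36; adjusted p = 4.81e-19), at the edge of the fold threshold. XDH was 1.68-fold higher (1.62 to 1.74; adjusted p = 2.22e-179), a difference well beyond counting error but under 2-fold, and was not called. With an assumed coefficient of 0.2 the BTN1A1 call was lost and those of CIDEA and GP2 were kept, with 0.4 all 3 were lost, and a 3-fold threshold ended that of BTN1A1. Over all genes 0.74% were called higher with 0.2, 0.0683% with 0.4 and 1.46% at 3-fold. Thus 3 of the 4 genes were called higher with the Audic-Claverie test, beside 13.5% of all genes tested that were called at all, 3.12% higher and 10.4% lower.

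The call of XDH in stage II depended on how the libraries were scaled. Milk protein tags crowd the +3 d library: the 4 caseins with PAEP (beta-lactoglobulin) took up 0.348% of clean tags in the dry period, 4.13% in stage I and 22.6% in stage II, and these tags are part of the total by which every gene's TPM is divided. Over all genes tested, the median log2 ratio was −0.21 in stage I, −0.30 in stage II and −0.54 over the whole span. TMM scaling (edgeR), which centres most genes near 0, raised each log2 ratio by 0.19, 0.31 and 0.50 in the 3 comparisons. XDH in stage II then had a log2 ratio of 1.06 and was called higher. The log2 ratio of BTN1A1 in stage II was 1.01 with clean tags and 1.32 with TMM scaling.

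From −35 d to +3 d all 4 genes were called higher, beside 18.6% of the 8988 genes tested that were called at all, 2.33% higher and 16.3% lower. GP2 rose 56.3-fold (29.4 to 124; adjusted p = 1.26e-134, Audic-Claverie test), CIDEA 37.6-fold (15.8 to 117; adjusted p = 8.14e-48), BTN1A1 19.5-fold (13.2 to 30.2; adjusted p = 5.90e-115) and XDH 4.64-fold (4.41 to 4.89; its p was again too small to be held as a number). With an assumed coefficient of 0.2 all 4 calls were kept, and with 0.4 GP2 alone was called. Over all genes 0.601% were called higher with 0.2 and 0.145% with 0.4. GP2, CIDEA and BTN1A1 stood at places 14, 18 and 31 among all ratios of this comparison, and XDH at place 393. XDH, with the most tags of the 4 in every library, had the smallest fold in each of the 3 comparisons by point estimate, although in stage I its fold lay within the intervals of CIDEA and GP2.

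**Figure D2:**
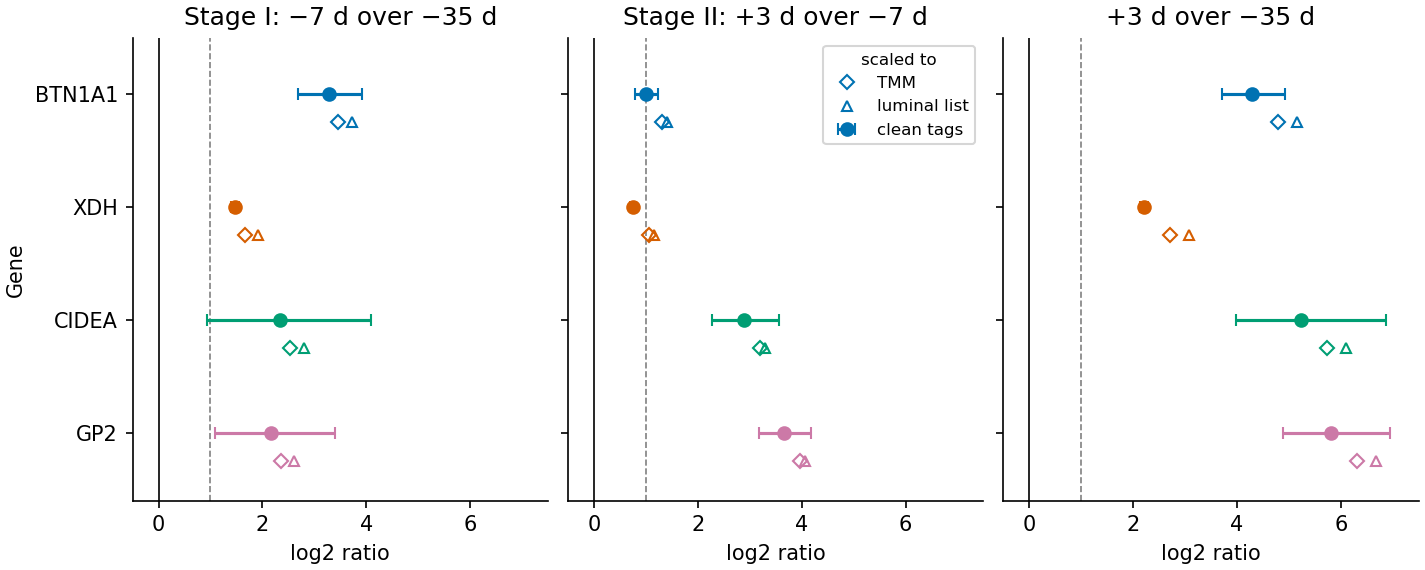
Log2 ratios of the 4 genes in stage I (−7 d over −35 d), stage II (+3 d over −7 d) and +3 d over −35 d. Filled points with bars are ratios of levels per clean tag with 95% intervals of counting error, open diamonds use TMM scaling, open triangles use the summed tags of the luminal marker list, and the dashed line marks a log2 ratio of 1. XDH in stage II lies left of the line at 0.75 with clean tags and right of it with the other 2 scalings.

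The share of the rise that fell in each stage varied among the genes. Of the total log2 rise between −35 d and +3 d, 76.4% fell in stage I for BTN1A1 and 66.2% for XDH, against 44.8% for CIDEA and 37.1% for GP2. These shares are point estimates with clean tags, have no interval and change with scaling. Those of CIDEA and GP2 are loose, with stage I log2 ratios of 2.34 (0.92 to 4.09) and 2.16 (1.09 to 3.39). Whether 2 genes changed by different factors was tested with Fisher's exact test on their tags in 2 libraries, which does not depend on scaling, with p-values adjusted over the 18 tests of 6 pairs in 3 comparisons.

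In stage I, BTN1A1 rose more than XDH, by 1.81 on the log2 scale (1.22 to 2.46; adjusted p = 9.31e-12, Fisher's exact test). None of the other 5 pairs differed at an adjusted p of 0.05, but with so few tags the intervals were wide: the stage I difference between BTN1A1 and GP2 was 1.12 (−0.28 to 2.39) and that between BTN1A1 and CIDEA 0.93 (−0.94 to 2.51). The intervals leave room for differences of several fold between these genes before parturition.

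In stage II, 5 of the 6 pairs differed. GP2 rose more than XDH, the difference XDH minus GP2 being −2.91 (−3.43 to −2.43; adjusted p = 1.29e-53, Fisher's exact test), and more than BTN1A1, the difference BTN1A1 minus GP2 being −2.64 (−3.21 to −2.11; adjusted p = 6.55e-29). CIDEA likewise rose more than both, with differences of −2.14 for XDH minus CIDEA (−2.82 to −1.52; adjusted p = 3.00e-15) and −1.88 for BTN1A1 minus CIDEA (−2.59 to −1.21; adjusted p = 7.64e-10). BTN1A1 and XDH, the partners in the membrane complex, differed by 0.26 (0.03 to 0.50; adjusted p = 0.0445). For CIDEA minus GP2 the difference was −0.77 (−1.58 to 0.08; adjusted p = 0.0912), which does not separate them and does not show that they rose alike. Over the whole span, −35 d to +3 d, the pairs not separated were BTN1A1 with CIDEA (−0.95, −2.70 to 0.49) and CIDEA with GP2 (−0.58, −2.33 to 1.36), while BTN1A1 and GP2 differed by −1.53 (−2.82 to −0.37; adjusted p = 0.0109, Fisher's exact test).

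**Figure D3:**
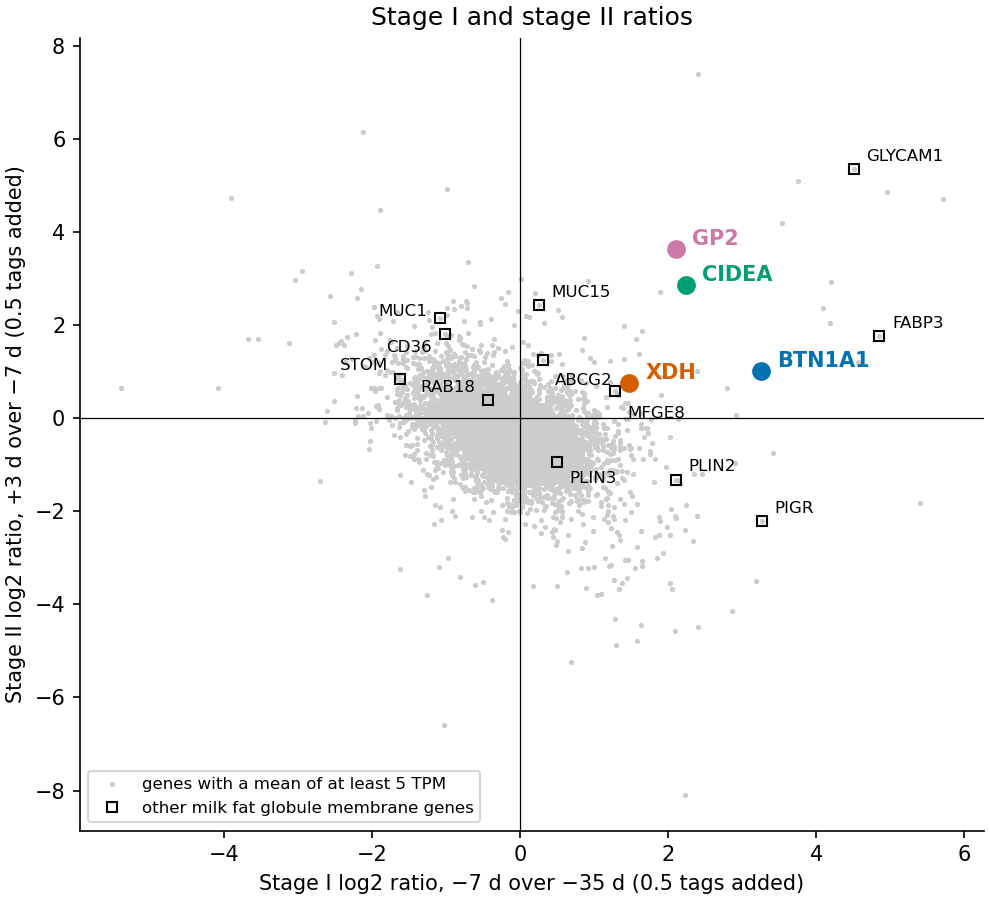
Log2 ratio in stage I (horizontal) against stage II (vertical), both with 0.5 tags added to each count, for genes whose mean level reached 5 TPM (grey points), the 4 genes (large coloured points) and other genes of the milk fat globule membrane (open squares). Both axes use the −7 d library. The 4 genes lie above 0 on both axes, as do GLYCAM1, FABP3, MFGE8, MUC15 and ABCG2 of the membrane genes, while PLIN2, PLIN3 and PIGR lie above 0 in stage I and below 0 in stage II.

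PLIN2, the droplet coat protein that the XDH and butyrophilin pair is thought to dock on, followed another course. It had 698, 2847 and 1192 tags, or 118, 509 and 204 TPM. It rose 4.31-fold in stage I and fell 2.50-fold in stage II (adjusted p = 5.38e-168, Audic-Claverie test), and the log2 ratio of 0.79 between −35 d and +3 d was not called, though it was called higher with TMM scaling. The stage II log2 ratio of −1.32 became −1.01 with TMM scaling, −0.996 with DESeq2 size factors and −0.91 with the luminal marker list as the scale, and the call was lost with the last 2. The ratios to other genes within a library do not depend on the scale.

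Set against PLIN2 within each library, each of the 4 genes had its highest ratio at +3 d. There were 2.54 XDH tags per PLIN2 tag at −35 d, 1.62 at −7 d and 6.82 at +3 d. Conversely, 26.8 PLIN2 tags were counted for each BTN1A1 tag at −35 d, 11.96 at −7 d and 2.37 at +3 d. GP2 stood at 0.0129, 0.0133 and 0.420 tags per PLIN2 tag, and CIDEA at 0.00716, 0.00843 and 0.156. XDH had more tags than PLIN2 throughout, with the lowest ratio at −7 d. The ratios of GP2 and CIDEA to PLIN2 stayed within a wide counting error before parturition and climbed after it.

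These pairs were chosen after the values were seen, so the following tests (Fisher's exact test, adjusted over 18) describe the counting error of these ratios. In stage I the log2 difference from PLIN2 was −0.64 for XDH (−0.79 to −0.50; adjusted p = 5.74e-19), 1.17 for BTN1A1 (0.56 to 1.82; adjusted p = 5.04e-05), 0.05 for GP2 (−1.03 to 1.29) and 0.23 for CIDEA (−1.19 to 1.99). In stage II it was 2.07 for XDH (1.96 to 2.18), 2.33 for BTN1A1 (2.09 to 2.58), 4.98 for GP2 (4.49 to 5.50) and 4.21 for CIDEA (3.58 to 4.90). All 4 stage II differences were far larger than counting error.

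**Figure D4:**
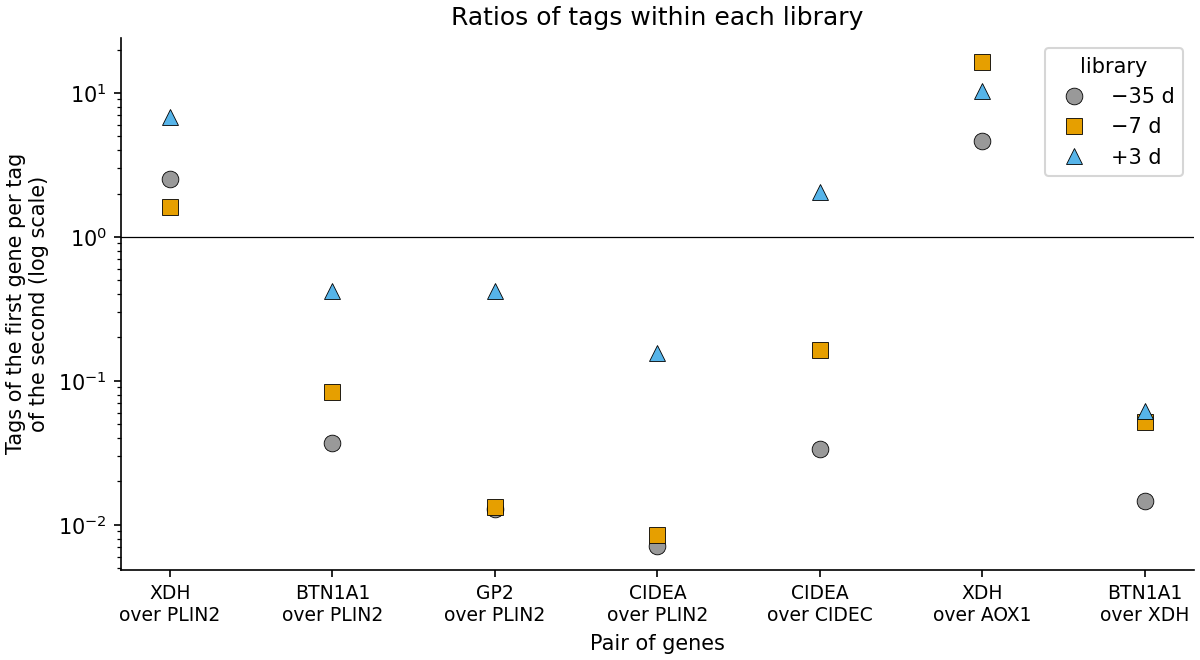
Tags of the first gene of each pair per tag of the second within each library (log axis), 1 point per library. XDH passes from 1.62 tags per PLIN2 tag at −7 d to 6.82 at +3 d, and CIDEA passes from below 1 tag per CIDEC tag at −35 d and −7 d to 2.04 at +3 d.

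Only 3 relatives of BTN1A1, XDH and CIDEA were listed, and none of GP2. CIDEC, the paralog of CIDEA that drives the formation of large droplets in white fat, was at 25.0, 26.3 and 15.6 TPM and was called in none of the comparisons. For each CIDEA tag there were 29.6, then 6.12 and then 0.489 CIDEC tags. The ratio of the 2 paralogs thus shifted toward CIDEA in both steps, and which of them had more transcripts is not given by it. The log2 difference between CIDEA and CIDEC was 2.27 in stage I (0.80 to 4.05; adjusted p = 0.000793, Fisher's exact test) and 3.65 in stage II (2.90 to 4.43; adjusted p = 1.49e-29), in a pair also chosen after its values were seen.

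AOX1, aldehyde oxidase, is the nearest listed relative of XDH and uses the same molybdenum cofactor. It was at 64.8, 50.4 and 135 TPM, not called in stage I and called higher in stage II and over the whole span. XDH had 4.62 tags per AOX1 tag at −35 d, 16.4 at −7 d and 10.3 after parturition. The stage II log2 ratio of XDH minus that of AOX1 was −0.67 (−0.88 to −0.46; adjusted p = 5.05e-11, Fisher's exact test), and XDH had more tags than AOX1 in every library. BTNL9, a butyrophilin-like gene, was at 19.1, 8.05 and 14.0 TPM and was called lower in stage I, a call lost when the luminal marker list set the scale, and with TMM scaling it was called higher in stage II. BTN2A2, BTNL2, AOX3, AOX4, UMOD, CUZD1 and CIDEB were not listed. Of the 3 listed relatives, 0 were called higher and 1 lower in stage I, 1 higher in stage II and 1 higher over the whole span, beside 2.62%, 6.45%, 3.12% and 2.33% over all genes. With TMM scaling 2 were called higher in stage II, beside 5.87% over all genes.

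Other proteins of the milk fat globule membrane formed the list nearest to the 4 genes. Of its 17 symbols, 13 were listed, with 14 accessions. Of the 14, in stage I 5 were called higher, 3 lower and 6 were not called, beside 2.62% higher and 6.45% lower over all genes (median log2 ratio 0.28, or 0.40 with a count of 0 taken as 3 tags, and −0.21 over all genes). In stage II 7 were called higher and 2 lower, beside 3.12% and 10.4% (median 1.04, and −0.30 over all genes), and over the whole span 8 were called higher and 1 lower, beside 2.33% and 16.3% (median 1.06, and −0.54 over all genes). With TMM scaling the counts were 5 higher and 1 lower, 8 and 2, and 10 and 0, beside 4.22% and 3.9%, 5.87% and 4.9%, and 6.23% and 4.94% over all genes. The counts and medians describe the list and were not tested.

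GLYCAM1, a small mucin-like glycoprotein of milk, was the member of the list that climbed most steeply over the whole span. It went from 4.06 to 94.2 and 3840 TPM, 23.2-fold in stage I, where FABP3 rose more, and 40.8-fold in stage II. FABP3, a carrier of fatty acids, was at 1.52, 46.3 and 157 TPM, 30.4-fold higher in stage I and 3.38-fold in stage II. MFGE8 (lactadherin), which binds phosphatidylserine on the globule surface, was at 139, 339 and 507 TPM. Like XDH, MFGE8 was called in stage I (2.43-fold) and not in stage II (1.498-fold) with clean tags. With TMM scaling XDH, but not MFGE8, was also called higher in stage II.

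Several membrane genes were called higher in stage II and not in stage I. The fatty acid transporter CD36 was at 157, 77.2 and 272 TPM and the mucin MUC1 at 46.7, 22.0 and 98.4 TPM. Both were called lower in stage I, calls lost with TMM scaling, and higher in stage II, by 3.53-fold and 4.47-fold. MUC15, at 18.3, 21.8 and 117 TPM, rose 5.37-fold in stage II, and the efflux transporter ABCG2, at 45.7, 56.3 and 133 TPM, rose 2.37-fold. Neither was called in stage I, where ABCG2 had a log2 ratio of 0.30 (0.06 to 0.54). SLC34A2, a phosphate transporter, had 2, 0 and 38 tags and was called higher in stage II, with the 0 standing for a gene not listed in the −7 d library. PIGR, which carries IgA into milk, peaked before parturition like PLIN2 (145, 1390 and 299 TPM) and fell 4.65-fold in stage II. STOM (accession NM_001105473.1) was called lower in stage I, at 34.8, 11.3 and 20.4 TPM, and its other accession, XM_001253214.3, with 15, 3 and 0 tags, was called lower over the whole span, a call lost with TMM scaling. With clean tags BTN1A1, CIDEA and GP2 were called higher in both stages, as were GLYCAM1 and FABP3. XDH and MFGE8 were called higher in stage I but not in stage II with clean tags, and XDH also in stage II with TMM scaling.

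**Figure D5:**
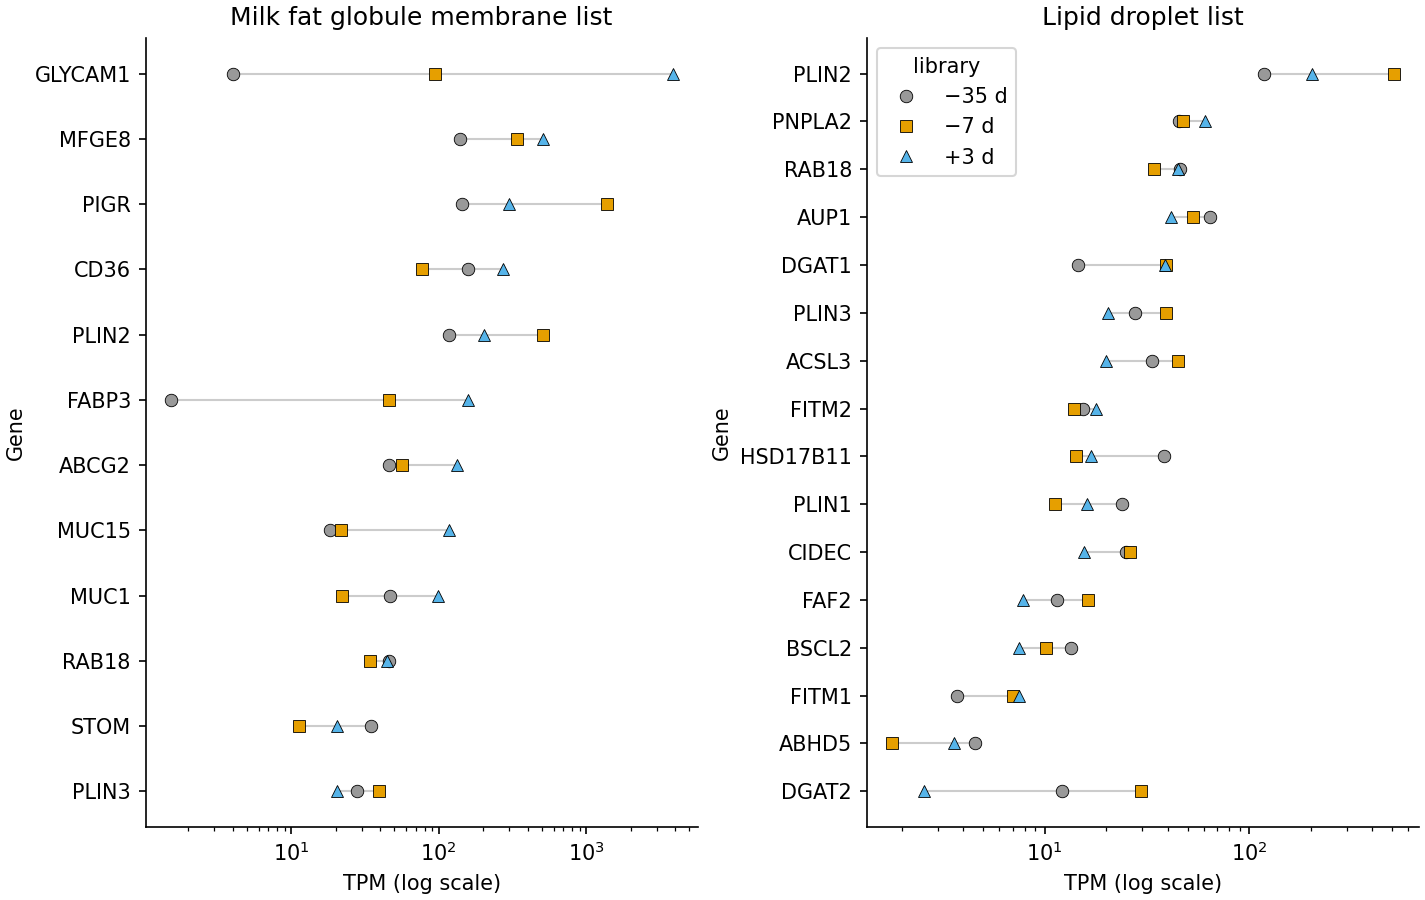
Level in each library (TPM, log axis) of the other milk fat globule membrane genes (left) and of the lipid droplet genes (right), for genes with over 3 tags in each library, 1 point per library. GLYCAM1 spans 4.06 to 3840 TPM, while PLIN2 and DGAT2 are highest at −7 d.

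With clean tags, genes of the cytoplasmic lipid droplet, on which CIDEA acts, were called in both directions in stage I and only lower in stage II. Of 26 symbols 19 were listed. In stage I 3 were called higher, PLIN2 and the triglyceride synthases DGAT1 (2.71-fold) and DGAT2 (2.42-fold), and 2 lower, PLIN1 (a call lost with TMM scaling) and HSD17B11, of 19 tested, beside 2.62% and 6.45% over all genes. With the luminal marker list as the scale 3 were higher and 0 lower in stage I, beside 7.96% and 1.97%. In stage II none was called higher and 4 lower, PLIN2, ACSL3, FAF2 and DGAT2 (11.5-fold lower, from 29.5 to 2.57 TPM), of 18 tested, beside 3.12% and 10.4%. Over the whole span DGAT1 was called higher and DGAT2 and HSD17B11 lower, beside 2.33% and 16.3%. With TMM scaling 3 were higher and 1 lower, beside 6.23% and 4.94% over all genes. In stage II the ACSL3 and FAF2 calls were lost with TMM scaling, and with DESeq2 size factors or the luminal marker list also that of PLIN2, which left DGAT2. Over all genes 4.9%, 4.7% and 3.6% were then called lower, in the order of these scalings. The list medians were −0.14, −0.19 and −0.54 in the 3 comparisons (0.07, −0.19 and −0.44 with a count of 0 taken as 3 tags), the last turned to 0.32 with the luminal marker list as the scale, and the stage I and stage II medians turned to 0.05 and 0.12 with TMM scaling. AUP1 and PNPLA2, which followed PLIN2 by mean level over the 3 libraries, were called in none of the comparisons. CIDEA itself was called higher in both stages.

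The enzymes around XDH in purine breakdown, with those that make or use the molybdenum cofactor, gave 15 listed of 20 symbols. In stage I 0 of 14 tested were called higher and 1, NT5E, lower, close to the 2.62% and 6.45% over all genes. In stage II NT5E and AOX1 were called higher and AMPD2, NT5C and HPRT1 lower, of 15 tested, beside 3.12% and 10.4%. At +3 d compared with −35 d AOX1 was called higher and HPRT1 and MOCS3 lower, beside 2.33% and 16.3%, at 56.8, 64.4 and 21.6 TPM for HPRT1, which salvages hypoxanthine before XDH can oxidise it. With TMM scaling the calls of AMPD2 and NT5C in stage II and of HPRT1 and MOCS3 over the whole span were lost. The list then had 3 higher and 1 lower in stage II, beside 5.87% and 4.9% over all genes. Over the whole span it had 2 higher and 0 lower, beside 6.23% and 4.94%. PNP, which supplies hypoxanthine and was the most abundant gene of the list, was at 211, 163 and 266 TPM and was not called, though it was called higher in stage II with TMM scaling. APRT, next by mean level over the 3 libraries, was at 144, 162 and 106 TPM and was not called. MOCOS, which activates the cofactor of XDH, was at 25.0, 21.6 and 17.8 TPM and was not called. The list medians were −0.05, −0.26 and −0.16 (0.09, −0.43 and −0.23 with a count of 0 taken as 3 tags), and all 3 were above 0 with TMM scaling.

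Markers of cell types moved between the libraries as well, and their part in the rise of the 4 genes was not tested. The 8 listed luminal markers summed to 1539, 1122 and 848 TPM. The most abundant of the 8 was EPCAM in the −35 d library, ELF5 in the −7 d library and KRT7 in the +3 d library. KRT7 itself was at 350, 247 and 236 TPM. None of the 8 was called higher in any comparison, beside 2.62%, 3.12% and 2.33% of all genes. With 8 genes, such a count is near what these shares give. CDH1 and CLDN4 were called lower in stage I, ELF5 in stage II and EPCAM and CDH1 over the whole span, beside 6.45%, 10.4% and 16.3% of all genes, and with TMM scaling 1, 0 and 0 were lower, beside 3.9%, 4.9% and 4.94%. Per 1000 tags of this list, BTN1A1 had 2.86, 37.9 and 101 tags, XDH 195, 737 and 1640, CIDEA 0.549, 3.82 and 37.5 and GP2 0.989, 6.05 and 101. Per clean tag, the summed luminal level was lowest in the library in which the 4 genes were highest. The luminal list medians were −0.84, −0.002 and −0.75 in the 3 comparisons, and −0.65, 0.31 and −0.25 with TMM scaling.

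Myoepithelial markers (7 of 8 listed) summed to 628, 380 and 789 TPM. The most abundant of them was ACTA2 in the −35 d library and KRT17 in the −7 d and +3 d libraries. KRT17 itself was at 129, 98.7 and 293 TPM. KRT5 and ACTA2 were called lower in stage I, and KRT17, CNN1 and OXTR higher in stage II. Over the whole span the same 3 were called higher and KRT5 lower. The shares over all genes were 6.45% lower in stage I, 3.12% higher in stage II, and 2.33% higher and 16.3% lower over the span, and with TMM scaling the ACTA2 call in stage I and the KRT5 call over the span were lost, while 4 were higher in stage II and 4 over the span, beside 5.87% and 6.23% over all genes. Macrophage markers (10 accessions for 9 of 11 symbols, C1QB and C1QA the most abundant) summed to 342, 262 and 473 TPM, with CD68, CD163 and CSF1R called lower in stage I, CD14, CD163 and CSF1R higher in stage II and CD14 and CD163 higher over the whole span, beside the same shares. With TMM scaling 3 were lower in stage I, 4 higher in stage II and 3 higher over the span, beside 3.9%, 5.87% and 6.23% over all genes. With the luminal marker list as the scale only CD68 stayed lower in stage I, beside 1.97% over all genes. ITGAM had 2 tags at −35 d and was not listed in the other libraries. Both lists were lowest at −7 d, where each of the 4 genes was above its −35 d level.

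Adipocyte markers bear most directly on CIDEA, which fat cells also use. Of 12 symbols 9 were listed, with summed levels of 285, 178 and 410 TPM and FABP4 the most abundant. The brown fat markers UCP1 and PRDM16 were not listed. ADIPOQ, a defining gene of fat cells, was at 5.07, 4.83 and 2.74 TPM and was called in no comparison, and PLIN1 was at 23.8, 11.3 and 16.1 TPM. PPARG, the regulator of fat cell formation, was at 2.87, 4.29 and 9.75 TPM. Of the 9, PLIN1 and CFD were called lower in stage I, FABP4 and CFD higher in stage II, the step in which CIDEA rose 7.42-fold, and PPARG higher over the whole span, beside 6.45% lower, 3.12% higher and 2.33% higher over all genes. With TMM scaling 0 were lower in stage I and 3 were higher in stage II and 3 over the whole span, beside 3.9%, 5.87% and 6.23%. The list medians were −0.07, 0.51 and 0.68, and 0.12, 0.82 and 1.18 with TMM scaling. PLIN1 and CIDEC stand in this list and in the lipid droplet list.

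All 6 milk protein genes were called higher in each comparison, beside 2.62%, 3.12% and 2.33% over all genes. Their median log2 ratios were 4.14, 2.65 and 6.79, and −0.21, −0.30 and −0.54 over all genes. For each 1000 tags of CSN2 (beta-casein) XDH had 407, then 66.2 and then 21.6 tags. BTN1A1 stood at 5.98, 3.41 and 1.33 tags per 1000 CSN2 tags. GP2 stood at 2.07, 0.544 and 1.33 and CIDEA at 1.15, 0.343 and 0.494, so both had fewer tags per CSN2 tag at −7 d than in the other libraries. Each of the 4 genes had fewer tags per CSN2 tag at +3 d than at −35 d, a difference that was not tested.

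The genes most like each of the 4 were sought among 5891 genes whose mean level reached 5 TPM with over 3 tags in each library, by the distance between the pairs of stage I and stage II log2 ratios. For XDH the nearest was MFGE8 (distance 0.25), followed by ANG, angiogenin (0.26), and TMCO5B (0.27), and 9 genes lay within 0.5. BTN1A1 had no gene within 0.5, the nearest being LOC100336001 (0.59), TMEM120B (0.87) and WIPI1 (1.01). CIDEA was nearest to HLA-DQA1 (0.39), a class II histocompatibility gene, then GP2 (0.79) and RNASE1 (1.15). GP2 was nearest to CIDEA (0.79), then HLA-DQA1 (0.96) and COL8A1 (1.37). A gene with a low start enters this pool only if a later library lifts its mean, as CIDEA does through +3 d, so the filter itself favours rising genes among the neighbours of CIDEA and GP2. The likeness is over 3 libraries only and, for CIDEA and GP2, rests on under 40 tags in each of the −35 d and −7 d libraries.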

How the data were processed

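Mammary tissue of 6 cows per time point was pooled and made into 1 NlaIII DGE library each. The authors discarded adaptor tags, tags with unknown bases and tags seen 1 time, then matched the remaining 21-base tags, the clean tags, to CATG sites plus 17 bases in bovine transcripts (UMD 3.1), allowing 1 mismatch. The deposited counts are unambiguous clean tags per gene, and the deposited TPM values are those counts per 1000000 clean tags of the library. TPM recomputed from the counts differed by at most 0.0050. A gene absent from a library's table was given 0 tags, although it may have had tags, since ambiguous tags and tags seen 1 time were removed. The authors' mapping summary was not used.

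Libraries were compared by the Audic-Claverie test of the study's methods (p from the smaller tail, doubled; Benjamini-Hochberg over all genes with a tag in either library; 0 TPM set to 0.01 for the fold), intervals of ratios came from exact binomial limits, and no fold is given where a library had at most 3 tags. Alternatives were TMM and DESeq2 size factors, totals without genes over 1% of clean tags, totals of the luminal list, an exact test in edgeR given a biological coefficient of variation (BCV) of 0.2 or of 0.4, Fisher's exact test, 0.5 added tags, 3-fold as the threshold and only genes whose mean reached 5 TPM. List medians have 0.5 tags added. Named genes are the 4 members, the called and the 3 most abundant genes of each list and the 3 genes nearest to each member, and others were named after their values were seen. The members and lists were chosen with earlier results of these data known. Tag sequences are not printed, because no transcript sequences were used here. Tools were Python 3.11.15, numpy 2.4.6, scipy 1.17.1, pandas 2.3.3, matplotlib 3.10.9, R 4.3.3, edgeR 4.0.16 and DESeq2 1.42.0.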

Additional observations from a re-analysis of the deposited data

How the results depend on the processing

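For the 12 results of the 4 genes, 118 values under 10 alternatives gave 97 with the same direction and call, 17 that lost the call and 4 that gained it. Adding 0.5 tags was the only alternative that could have turned a direction, since the 4 scalings raised every ratio and the rest left it as it was, and XDH in stage II had no call to lose. Because they raised every ratio, the 4 scalings could hardly end a higher call. Their part of the 97 therefore does not test how firm these calls are. XDH in stage II was called with log2 ratios of 1.06 (TMM), 1.07 (DESeq2 size factors), 1.06 (without the genes over 1%) and 1.15 (luminal list). The calls lost under edgeR's exact test were those with an assumed BCV of 0.4 for BTN1A1 (3.27), XDH (1.47), CIDEA (2.34) and GP2 (2.16) in stage I, BTN1A1 (1.01), CIDEA (2.89) and GP2 (3.66) in stage II, and BTN1A1 (4.29), XDH (2.22) and CIDEA (5.23) from −35 d to +3 d. With a BCV of 0.2 they were XDH, CIDEA and GP2 in stage I and BTN1A1 in stage II. The 3-fold threshold ended the calls of XDH in stage I (1.47) and BTN1A1 in stage II (1.01), and Fisher's exact test that of CIDEA in stage I (2.34). CIDEA and GP2 in stage I have no value under the minimum of 5 TPM, because their mean lies below it. BTN1A1 in stage I, CIDEA in stage II and all 3 over the whole span passed it only through the library with the higher level. That filter does not test their calls either. Called genes numbered 813 in stage I, 1189 in stage II and 1672 from −35 d to +3 d. They were 54, 160 and 156 with a BCV of 0.2, 3, 8 and 14 with 0.4, and 317, 440 and 659 at 3-fold. From −35 d to +3 d they were 1004 with TMM, 992 with DESeq2 and 1039 without the genes over 1%. The split into higher and lower calls was 235 and 578, 274 and 915, and 209 and 1463 with clean tags. It was 378 and 350, 516 and 430, and 560 and 444 with TMM, and 714 and 177, 618 and 316, and 1118 and 163 with the luminal list. The stage I difference between GP2 and PLIN2 turned from 0.05 to −0.0085 with 0.5 tags added (adjusted p = 0.987 by a Wald test, an alternative chosen after seeing the data). The spread among cows is unknown, so the BCV values are assumptions, and the 5 and 9 dry-period tags of CIDEA and GP2 limit their ratios. No paired analysis was possible because each time point has 1 library.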

Other observations

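The 4 genes lie on 4 different chromosomes in the RefSeq annotation of ARS-UCD2.0, which was used for gene order only. The 3 protein-coding genes on each side of each gene, chosen after the data were seen, make 24 neighbours, of which 8 were listed: ABT1 and HMGN4 near BTN1A1, ADD2 and MEMO1 near XDH, CHMP1B, TUBB6 and AFG3L2 near CIDEA, and GPRC5B near GP2. None was called higher in any of the 3 comparisons, beside 2.62%, 3.12% and 2.33% of all genes tested, none was called lower in stage I or stage II, beside 6.45% and 10.4%, and ABT1, MEMO1 and CHMP1B were called lower at +3 d compared with −35 d, beside 16.3% (Audic-Claverie test). ADD2 was not listed in the −7 d and +3 d libraries and was not tested in stage II. With TMM scaling the 3 lower calls were lost and GPRC5B was called higher over the span, beside 6.23% higher and 4.94% lower. With 8 genes, counts of 0 are near what the shares give. HMGN4 was at 52.4, 53.8 and 52.5 TPM at −35 d, −7 d and +3 d, while BTN1A1 went from 4.396 to 85.9 TPM. TUBB6 was at 108, 126 and 119 TPM beside CIDEA, and GPRC5B at 9.64, 9.65 and 13.9 TPM beside GP2.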
